A study of Mus musculus with 4 samples.

Results

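Interferon-stimulated genes, 39 in all, were followed across the cell classes and both genotypes of a single-nucleus data set from injured mouse lung. The list held 30 genes best known as targets of type I interferon and 9 best known as targets of type II interferon, all chosen by name. Of these 39, 38 had a row among the 31053 genes counted (29 type I and 9 type II), and Mx2 was not analysed here. The nuclei came from male mice given the lung-injuring drug bleomycin 8 days earlier, and cells were sorted for the green lineage reporter of alveolar type 2 (AT2) cells before nuclei were isolated. Control mice carried SftpcCreERT2, a Cre recombinase driven by the surfactant protein C gene, with the Rosa26mTmG reporter, and CKO mice carried both of these together with IPF/F, a floxed gene for the prostaglandin I2 receptor (IP, encoded by Ptgir). RNA and open chromatin were read from the same nuclei (10x multiome), and each genotype was represented by 1 joint library, so the differences below have no replicate check and come with no p-value. How many mice went into a library is not given in the sources used here.

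Interferons are signals released during infection and tissue injury. Type I interferons (interferon alpha and beta) are made by many cell types and act through the receptor IFNAR and a complex that includes STAT2 and IRF9 and binds the interferon-stimulated response element (ISRE) in target promoters. Interferon gamma, the only type II interferon, is made mainly by T and natural killer (NK) cells and acts through the receptor IFNGR and on the gamma-activated site (GAS). Many genes respond to both, so a type I or type II label marks the better known inducer and not an exclusive one. In the lung, both leukocytes and epithelial cells can respond.

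The promoter letters that these factors read are printed for 7 members on which the results below turn, from RefSeq windows of the GRCm38.p6 build that run from 250 bases before to 50 bases after each gene's start. The ISRE was searched as GAAANNGAAA and the GAS as TTCNNNGAA, on both strands, with overlapping matches counted. Capitals mark the matching letters, and each sequence is written 5′ to 3′ on the gene's strand with 12 flanking bases on either side.
Ifit1 (ISRE, chr19:34640773-34640825, plus strand): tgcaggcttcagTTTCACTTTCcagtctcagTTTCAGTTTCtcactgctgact
Isg15 (ISRE, chr4:156200863-156200908, minus strand): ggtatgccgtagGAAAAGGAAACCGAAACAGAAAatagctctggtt
Rsad2 (ISRE, chr12:26456551-26456584, minus strand): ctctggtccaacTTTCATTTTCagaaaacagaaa
Slfn5 (ISRE, chr11:82951935-82951968, plus strand): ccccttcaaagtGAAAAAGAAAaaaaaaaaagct
Gbp5 (ISRE, chr3:142496757-142496790, plus strand): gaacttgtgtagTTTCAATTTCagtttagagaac
Gbp7 (GAS, chr3:142530218-142530269, plus strand): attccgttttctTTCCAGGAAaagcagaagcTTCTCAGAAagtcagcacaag
Irf1 (GAS, chr11:53769912-53769944, plus strand): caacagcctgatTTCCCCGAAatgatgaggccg
All lie upstream of the RefSeq start, with the first match beginning 104 bases before it in Ifit1, 78 in Isg15, 120 in Rsad2, 155 in Slfn5, 165 in Gbp5, 106 in Gbp7 and 90 in Irf1. Isg15 held 3 overlapping ISRE matches and Ifit1 held 2, whereas the Slfn5 match sits in a run of adenines. A window was at hand for 30 members. An ISRE match was found in 11 of 22 type I members (50%) and in 4 of 8 type II members (50%), against 1079 of 27025 genes in all (3.99%). A GAS match was found in 4 of 22 type I members (18.2%) and in 4 of 8 type II members (50%), against 2582 genes in all (9.55%). These are letter matches and not measured binding. The deposited peaks covered most of them: 20 of the 22 ISRE matches lay in a peak of the control library and 19 in a peak of the library labelled CKO, and 9 of the 10 GAS matches lay in a peak of each. The printed Slfn5 match lay in a peak of the control library but in none of the library labelled CKO.

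Depth was 48378328 UMIs (molecules of RNA counted) and 47307986 counts in peaks over 13569 control barcodes. For CKO it was 30818808 UMIs and 37365247 counts in peaks over 10925 barcodes. Both libraries shared 193 barcode sequences (1.42% and 1.77% of their barcodes). After filtering, 2180 control and 3883 CKO nuclei remained. Doublets were in effect not removed, since the caller marked 5 control and 0 CKO nuclei. The deleted gene does not check the label: in alveolar epithelial nuclei Ptgir had 0 UMIs in the control library, which allows up to 0.614 per 1000000 UMIs (exact Poisson limit), and 1 UMI in the library labelled CKO. Classes were set from marker genes on clusters made without the members, although other interferon targets could still shape the clusters, and Rsad2 and Slfn4 stood among the 10 leading genes of the neutrophil-like cluster. The libraries differ in makeup. Alveolar epithelial nuclei (AT2-like, transitional-like, cycling and AT1-like) made up 94.2% of control nuclei and 59.8% of CKO nuclei. Neutrophil-like nuclei numbered 1 (control) and 481 (CKO), macrophage and monocyte-like nuclei 32 and 387, and T and NK-like nuclei 60 and 349. A sort for lineage-labelled epithelium would remove such leukocytes, and why they are present was not tested. AT2-like nuclei of the libraries also lay mostly in different clusters, with 1161 of 1299 CKO nuclei in cluster 0 and 809 and 658 of 1600 control nuclei in clusters 1 and 3. The alveolar cluster numbered 4 scored highest for the AT1 list, yet its 10 leading genes held no AT1 marker and 1 transitional marker (Itgb6), so it is called cluster 4.

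Per UMI, the level of interferon-stimulated RNA was highest in the neutrophil-like nuclei of the library labelled CKO, while alveolar nuclei, the more numerous, held more type I UMIs in all (5551 against 2488). Levels are UMIs per 1000000 nuclear-encoded UMIs of a class (CPM), intervals are 95% intervals for counting error only, and a gene is counted in a comparison when it has at least 20 UMIs over both groups. Where a count of members higher has no share of all genes higher beside it, that count is description only. Summed type I members stood at 3176 CPM in neutrophil-like nuclei, 1827 in macrophage and monocyte-like, 1520 in plasmacytoid dendritic-like, 1482 in fibroblast and mural-like, 1284 in endothelial-like, 1188 in T and NK-like, 1059 in B lineage-like and 899 in ciliated-like nuclei, against 831 in alveolar nuclei. Summed type II members had another order, at 1108 in neutrophil-like, 701 in T and NK-like, 608 in fibroblast and mural-like, 498 in macrophage and monocyte-like, 486 in plasmacytoid dendritic-like, 463 in endothelial-like, 460 in B lineage-like and 185 in ciliated-like nuclei, against 211 in alveolar nuclei. Below the neutrophil-like nuclei, neighbours in either order often had overlapping intervals. Rare classes such as the 37 plasmacytoid dendritic-like and 57 fibroblast and mural-like nuclei carry wide ones.

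**Figure D1:**
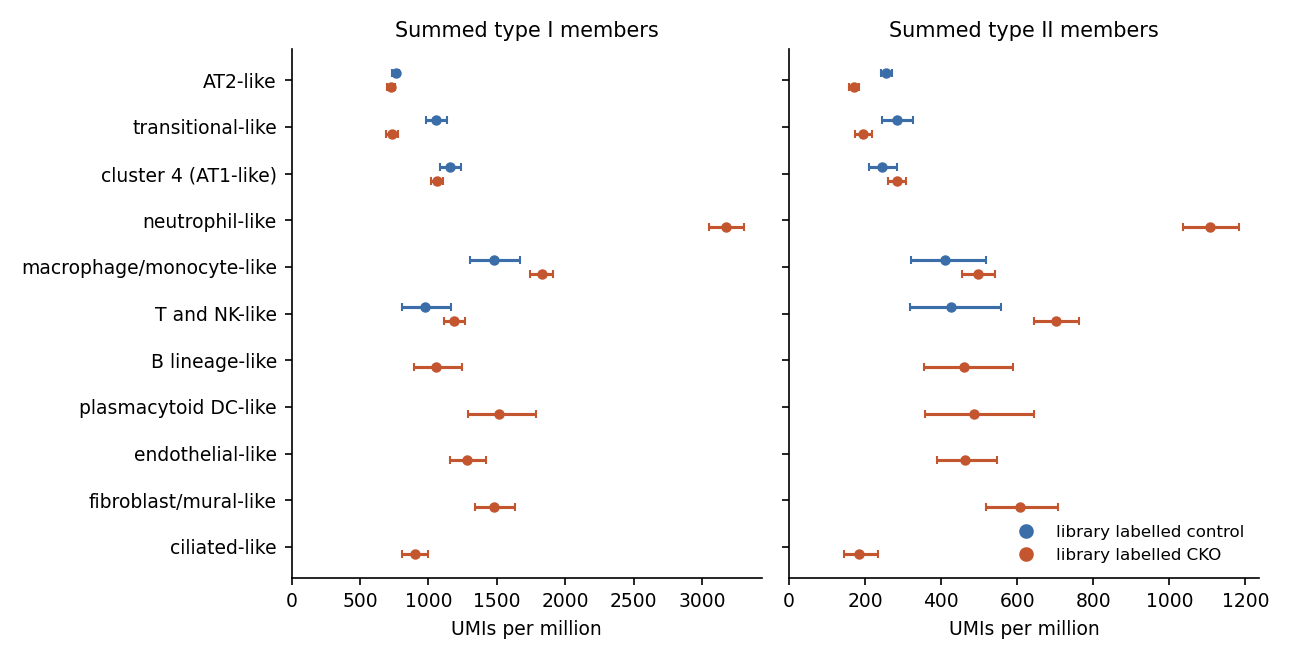
Summed level of type I members (left) and type II members (right) in CPM, by cell class and library. Points are levels and bars are exact 95% Poisson intervals (counting error only), and neutrophil-like nuclei stand farthest to the right in both panels, at 3176 and 1108.

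Among 10 classes of at least 50 nuclei in the library labelled CKO, 18 of 29 type I members had their highest level in neutrophil-like nuclei, 5 in macrophage and monocyte-like, 2 in B lineage-like, 2 in fibroblast and mural-like, 1 in T and NK-like and 1 in ciliated-like nuclei. For 12 of the 18, the interval of the ratio to the next class lay above 0. For the other members, the top class and the next did not differ beyond counting error. Of the 9 type II members, 5 were highest in neutrophil-like, 2 in T and NK-like and 2 in B lineage-like nuclei, and this order held beyond counting error for Gbp2 and Gbp7 in neutrophil-like and for Nlrc5 in T and NK-like nuclei.

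**Figure D2:**
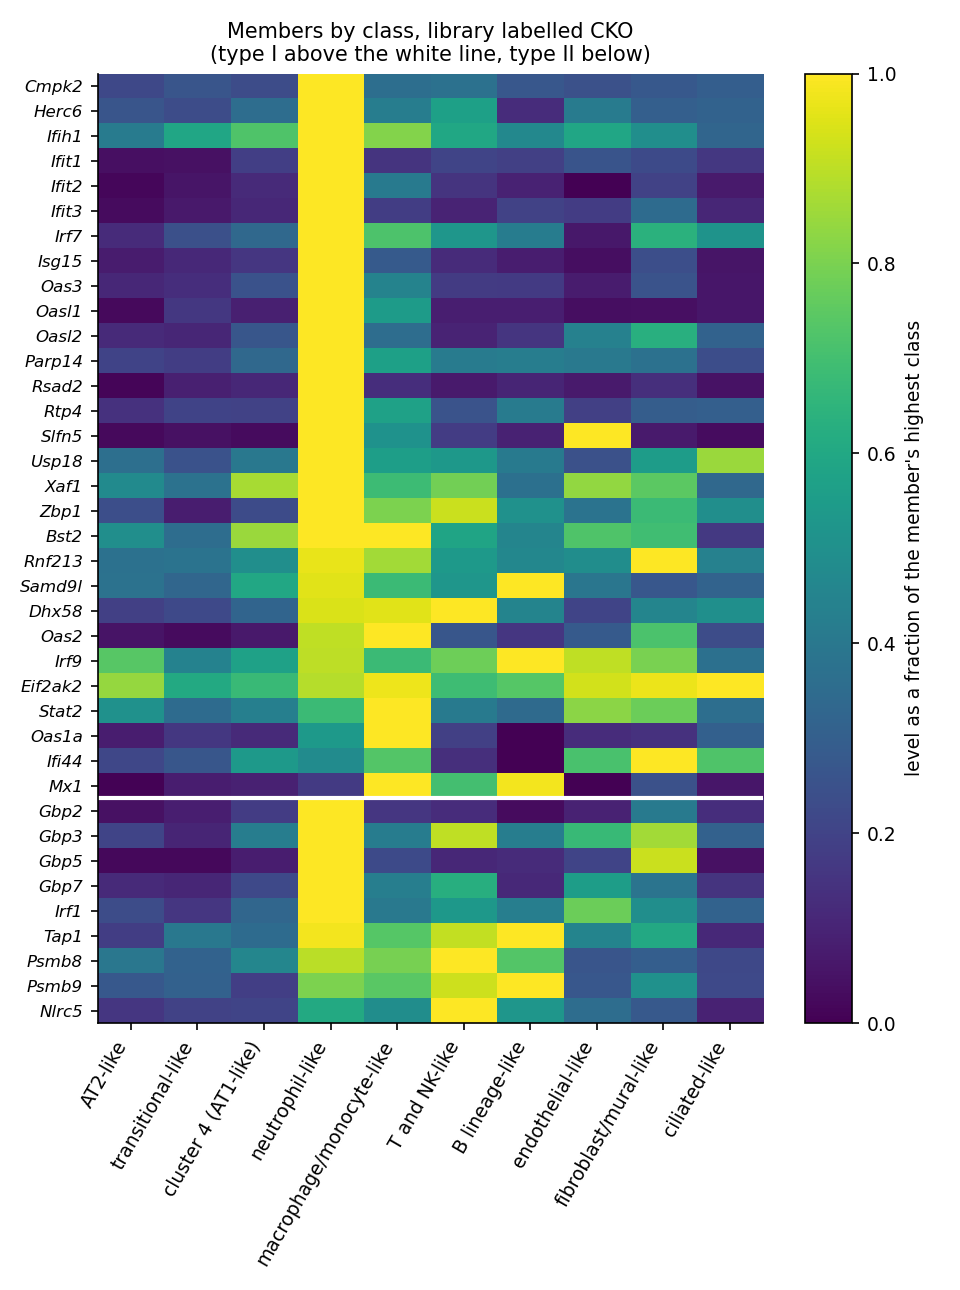
Level of each of the 38 members (rows) in the 10 classes of at least 50 nuclei in the library labelled CKO (columns), as a fraction of that member's highest class. Type I members are above the white line and type II members below it, and the yellow column of neutrophil-like nuclei holds the highest level of 18 type I and 5 type II members.

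Compared with alveolar nuclei of the same library, neutrophil-like nuclei had all 29 type I members at a higher level, and 22 were higher by a log2 ratio of 1 or more (2-fold), against a background of 9.20% of 12762 genes counted. All 9 type II members were higher by at least that much. The log2 ratio of the sums was 1.93 (1.87 to 2.00) for type I and 2.39 (2.27 to 2.51) for type II members. The median member ratio was 2.09 and 2.00, and 40.9% of all genes had a ratio above 0. Neutrophil-like nuclei are shallow, with a median of 988 UMIs against 2663 in alveolar nuclei. With nuclei of at least 2000 UMIs alone, the ratios were 1.25 and 1.67. Leukocyte nuclei also held much AT2 marker RNA. The AT2 list summed to 9920 CPM in neutrophil-like, 6043 in macrophage and monocyte-like and 6167 in T and NK-like nuclei of the library labelled CKO, against 12371 in its alveolar nuclei, and the neutrophil list to 4047 in its own class. The part of RNA from other cells in the ratios between classes was not tested.

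Among the antiviral effectors, Rsad2, which encodes viperin, an enzyme that makes a chain-ending nucleotide, had 392 UMIs in neutrophil-like nuclei (500 CPM) and 191 in alveolar nuclei (28.6 CPM), a log2 ratio of 4.13 (3.88 to 4.39). The IFIT genes, whose products bind foreign RNA, were also higher: Ifit1 stood at 115 against 9.73 CPM (3.56), Ifit2 at 75.3 against 4.19 (4.17) and Ifit3 at 74.0 against 4.64 (4.00). Ifit3 has a near-identical copy, Ifit3b, and how reads were split between them is not given in the sources used here. Slfn5, a Schlafen family gene, had the highest ratio of all members, at 156 against 4.94 CPM and a log2 ratio of 4.98 (4.41 to 5.58). At the other end of this role, Bst2, which encodes the virion-trapping protein tetherin, had a ratio of 0.78, Xaf1 0.81 and Ifi44 0.61 (-0.79 to 1.79). Summed, the effectors stood at 1228 CPM in neutrophil-like, 458 in macrophage and monocyte-like and 279 in T and NK-like nuclei, and at 138 and 171 in control and CKO alveolar nuclei.

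Among the nucleic acid sensors, the oligoadenylate synthetase genes, whose products sense double-stranded RNA, were high in neutrophil-like nuclei, with Oasl1 at 88.1 against 6.29 CPM in alveolar nuclei (log2 ratio 3.81), Oasl2 at 188 against 30.4 (2.63), Oas3 at 2.66 on the log2 scale, and Oas2 at 42.1 against 2.40 (4.14). Macrophage and monocyte-like nuclei matched or passed them for Oas2 (46.5 CPM) and Oas1a (26.2 against 14.0 in neutrophil-like nuclei). Ifih1, which encodes the RNA sensor MDA5, had a ratio of 0.88. Eif2ak2, which encodes the kinase PKR, was nearly level over classes, at 88.1 against 73.8 CPM (0.25, -0.13 to 0.62).

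Of the transcription factors, Irf7, the amplifier of type I interferon production, had a ratio of 2.24 in neutrophil-like over alveolar nuclei, and Irf1, an early target of interferon gamma, stood at 188 against 46.9 CPM (2.00, 1.71 to 2.29). Stat2 (0.59) and Irf9 (0.51), which encode parts of the type I complex, differed less. Nlrc5, the activator of MHC class I genes, stood at 152 against 45.4 CPM (1.74). Among genes of the ubiquitin-like and ADP-ribose systems, Isg15, the ubiquitin-like protein itself, stood at 91.9 against 9.88 CPM (3.22), Parp14 at 328 against 78.3 (2.07), Rnf213 at 365 against 156 (1.22), and Usp18, which removes ISG15 from proteins, at 53.6 against 19.2 (1.48).

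The guanylate-binding proteins, GTPases that attack the membranes around pathogens, were the type II members with the widest gap. Gbp5 stood at 177 against 6.89 CPM (4.69, 4.20 to 5.20), Gbp2 at 243 against 22.5 (3.43, 3.12 to 3.75), Gbp7 at 125 against 18.6 (2.75) and Gbp3 at 2.01 on the log2 scale. In the 57 fibroblast and mural-like nuclei Gbp5 stood at 163 CPM, which did not differ from the neutrophil-like level beyond counting error. The antigen processing genes had smaller ratios, with Tap1, a subunit of the peptide transporter, at 1.78, and the immunoproteasome subunits Psmb9 at 1.64 and Psmb8 at 1.18.

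Macrophage and monocyte-like nuclei had all 29 type I members above alveolar nuclei, 19 of them by a log2 ratio of 1 or more (background 12.4% of genes), and all 9 type II members, 6 of them by that much. The sums gave 1.14 (1.06 to 1.21) and 1.24 (1.09 to 1.38). Mx1, a GTPase that blocks viral replication, led with 44.6 against 2.10 CPM (4.41), followed by Oas2 (4.28), Slfn5 (4.01), Oas1a (3.13), Oasl1 (2.95) and Ifit2 (2.89). Set directly against them, neutrophil-like nuclei had 21 of 29 type I members higher, 9 by a log2 ratio of 1 or more (background 6.74%), and 9 of 9 type II members higher, 5 by that much, with sums of 0.80 (0.71 to 0.88) and 1.15 (0.99 to 1.31). Mx1 went the other way, at 7.66 CPM in neutrophil-like nuclei.

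T and NK-like nuclei stood out for the type II list. The sum of type II members was higher than in alveolar nuclei by 1.73 on the log2 scale (1.59 to 1.87), against 0.51 (0.41 to 0.61) for type I members. All 9 type II members were higher and 8 passed a log2 ratio of 1 (background 12.5%). Of the 29 type I members, 25 were higher, 8 passed, and Ifi44 alone was lower by a log2 ratio of 1 or more, on 2 UMIs. Nlrc5 stood at 251 CPM against 45.4 (2.47, 2.20 to 2.73), Gbp7 at 78.6 against 18.6 (2.08), Psmb9 at 1.84, Tap1 at 106 against 33.5 (1.66), Gbp5 at 1.53, Psmb8 at 1.34 and Irf1 at 1.09 on the log2 scale. Gbp2 was the type II member that did not pass (0.47, -0.20 to 1.09). Type I members with high ratios were Mx1 (3.89), Slfn5 (2.47), Oas2 (2.38), Zbp1 (2.20), a sensor of left-handed nucleic acid, and Dhx58 (2.11), the helicase LGP2, whereas the IFIT genes had ratios between 0.69 and 1.42, Isg15 0.18 and Rsad2 0.34.

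The stromal classes also had sums above those of alveolar nuclei. Endothelial-like nuclei had 6 of 28 type I and 4 of 9 type II members above alveolar nuclei by a log2 ratio of 1 or more (background 12.3%), with Slfn5 at 156 CPM, level with the neutrophil-like nuclei. Fibroblast and mural-like nuclei had 12 of 28 and 5 of 9 (background 14.0%), with Rnf213 at 378 and Gbp2 at 100.02 CPM. With 128 and 57 nuclei in these classes, single members rest on few UMIs.

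The control library held 32 macrophage and monocyte-like nuclei, fewer than the 50 set for a class above, and 60 T and NK-like nuclei. Over its alveolar nuclei, the former gave log2 ratios of 0.81 for type I and 0.67 for type II members, and the latter 0.20 (-0.07 to 0.47) and 0.72. Of the 32 nuclei, 1 held 40 of the 259 type I UMIs (15.4%). Without that nucleus the class stood at 1256 CPM in place of 1479 for type I, and at 367 in place of 411 for type II members. T and NK-like nuclei of the library labelled CKO had 10 of 16 type I members counted above those of the control library, 4 by a log2 ratio of 1 or more, and 8 of 8 type II members, 3 by that much (background 27.8% of 6972 genes). The shares called were near that background. Each called member had an interval reaching below 0, and Irf7, Mx1 and Gbp3 had 0 control UMIs. The sums in these nuclei were 1188 against 975 CPM for type I (0.28, 0.01 to 0.57) and 701 against 426 for type II members (0.72, 0.31 to 1.16), with Nlrc5 at 251 against 147 (0.77, 0.07 to 1.55). Scaled by the median of ratios, the type I ratio was 0.0070. The type II ratio lay between 0.44 and 0.84 under the alternatives run. The neutrophil marker list summed to 296 CPM in CKO and 16.4 in control T and NK-like nuclei, while macrophage and monocyte-like nuclei had 728 and 171. The macrophage list in T and NK-like nuclei stood at 247 and 123. Their part in these ratios was not tested.

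Counted by nucleus, at a common depth of 1000 UMIs, 76.7% of neutrophil-like nuclei had a UMI of a type I member (70.6 to 82.1, Clopper-Pearson), against 71.3% of macrophage and monocyte-like, 64.0% of T and NK-like and 48.3% of AT2-like nuclei of the library labelled CKO. The shares at each nucleus's own depth were 85.7%, 87.6%, 74.5% and 69.6%. Thinning kept 223 of 481 neutrophil-like nuclei. A type II UMI was found in 50.7% of neutrophil-like nuclei, 53.0% of T and NK-like, 36.2% of macrophage and monocyte-like and 14.2% of AT2-like nuclei. RNA from other cells can add such UMIs, as the AT2 list in leukocyte nuclei shows, and its part in these shares was not tested. High values were uneven within the neutrophil-like class: 37 of 481 nuclei (7.69%, 5.47 to 10.4) had at least 10 type I UMIs making up 1% or more of their own UMIs. Those 37 held 24.8% of the class's type I UMIs, and without them the class still stood at 2501 CPM.

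Within the epithelium, cluster 4 carried more type I RNA than AT2-like nuclei in both libraries. In the control library the sum was 1161 against 763 CPM (0.61, 0.50 to 0.72), with 17 of 21 members higher and 6 by a log2 ratio of 1 or more (background 16.4%). In the library labelled CKO it was 1063 against 726 (0.55, 0.47 to 0.64), with 22 of 26 higher and 10 by that much (background 9.37%). The type II sum was level in the control library, at 245 against 255 CPM (-0.06, -0.29 to 0.17) with 0 of 8 members past a log2 ratio of 1, and higher in the library labelled CKO, at 283 against 171 (0.73, 0.56 to 0.91) with 3 of 9 past it. Nuclei of cluster 4 were deeper than AT2-like nuclei, with a median of 3780.5 against 2157 nuclear-encoded UMIs in the library labelled CKO, and the part of depth in these ratios was not tested. The type I level was not particular to cluster 4 in the control library, where transitional-like nuclei stood at 1058 CPM for type I and 283 for type II members. In the library labelled CKO they stood at 735 and 195.

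In CKO nuclei, Rsad2 stood at 56.4 CPM in cluster 4 against 6.39 in AT2-like nuclei (3.14), Ifit2 at 8.87 against 1.22 (2.86), Ifit1 at 21.4 against 4.87 (2.13), Gbp2 at 42.8 against 11.0 (1.97), Gbp5 at 14.1 against 3.65 (1.95) and Oasl2 at 50.1 against 22.5 (1.15). In control nuclei, Samd9l, a gene that restricts translation in infected cells, stood at 89.3 against 27.4 (1.70), Ifi44 at 21.7 against 6.02 (1.85) and Oasl2 at 67.7 against 24.1 (1.49), whereas Irf1 was lower in cluster 4, at 65.0 against 137 (-1.07). Few nuclei weighed on the CKO values. Of 460 cluster 4 nuclei, 3 (0.652%, 0.135 to 1.89) had type I members at 1% or more of their UMIs, and these held 12.2% of the type I and 16.4% of the type II UMIs of the cluster. Without them cluster 4 stood at 942 and 239 CPM, with Rsad2 at 23.2, Oasl2 at 44.8, Gbp2 at 32.7, Ifit1 at 14.8 and Gbp5 at 4.21, the last close to its AT2-like level of 3.65.

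Across all alveolar nuclei, 5 of 2323 in the library labelled CKO (1 AT2-like, 1 transitional-like and 3 in cluster 4) reached that share, and 3 of 2053 in the control library (2 AT2-like and 1 in cluster 4). The 5 held 300 of 5551 type I UMIs (5.40%) and the 3 held 103 of 5087 (2.02%). In the library labelled CKO they supplied 88 of the 191 alveolar UMIs of Rsad2 (46.1%), 19 of 46 of Gbp5 (41.3%), 13 of 65 of Ifit1 (20%) and 13.3% of Gbp2, but 0 of Slfn5, 0 of Ifit3 and 2.56% of Irf1. In that library, the 3 in cluster 4 had 132 UMIs of AT2, 71 of transitional and 40 of AT1 markers. The AT1 list stood at 2276 CPM in these 3 and at 5371 in the rest of the cluster. The AT2 list stood at 7511 and 7655, and the transitional list at 4040 and 3442. These 3 nuclei had 0 UMIs of the macrophage list, 1 each of the neutrophil, T and NK, and B lineage lists, and 12 of the dendritic list. The dendritic list stood at 683 CPM in these 3 and at 117 in the rest of the cluster. All leukocyte markers together stood at 1195 CPM in these 3 and at 637 in the rest of the cluster. The nucleus with most type I UMIs, 109, was among these, and the cluster's 3 had a median of 7128 nuclear-encoded UMIs against 3780.5 for all its nuclei. In the control library, the 1 in cluster 4 had 27 UMIs of the airway secretory list, at 17964 CPM against 63.7 in the rest. Its AT1 list stood at 11976 CPM against 4378. The 2 control AT2-like nuclei had the AT2 list at 3947 CPM against 11310 in the other AT2-like nuclei. Their AT1 list stood at 3618 against 1476. Whether these 3 are alveolar was not tested.

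**Figure D3:**
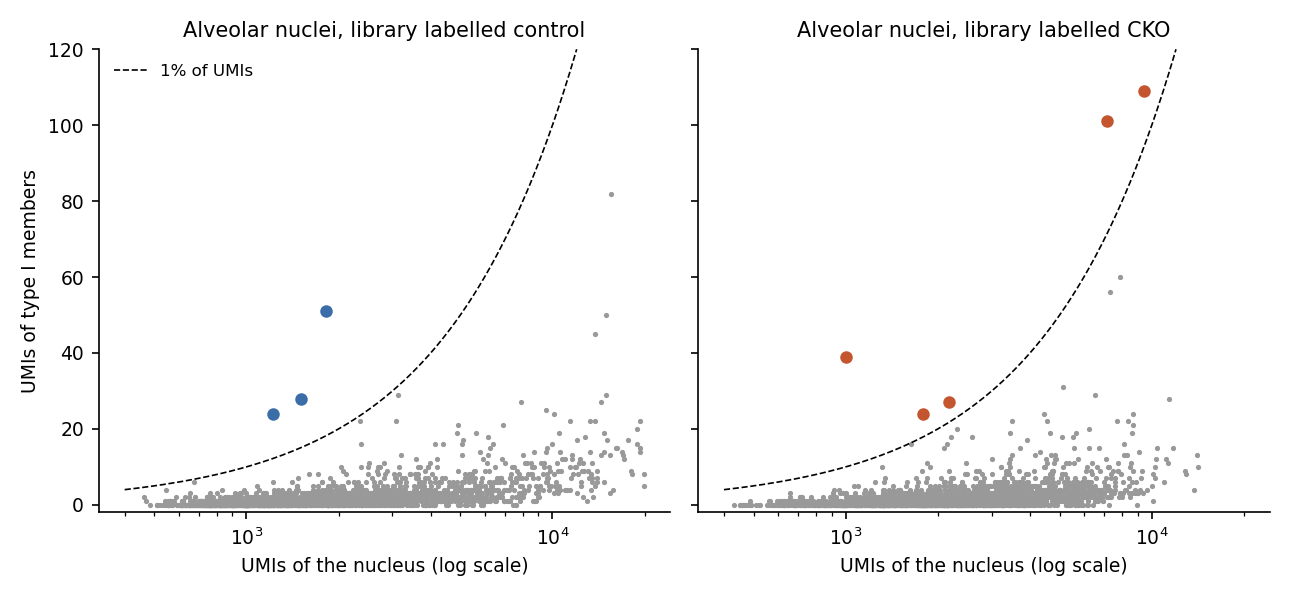
UMIs of type I members (vertical) against all UMIs of the nucleus (horizontal, log scale) for alveolar nuclei of each library, 1 point per nucleus. The dashed line is 1% of UMIs, and coloured points are the 3 control and 5 CKO nuclei at or above it with at least 10 type I UMIs.

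Between genotypes, the summed type I members of alveolar nuclei were level in CPM. The type II sum was lower in the library labelled CKO, and on the CPM scale this followed 1 gene, Irf1. Type I members summed to 831 CPM in the library labelled CKO and 846 in the control library, a log2 ratio of -0.026 (-0.081 to 0.029), and type II members to 211 and 258 (-0.29, -0.39 to -0.18). The scale matters here, since the median ratio over genes of 100 UMIs or more was 0.44. Of the 29 type I members, 16 were higher in the library labelled CKO and 11 lay above the median gene, and of the 9 type II members 6 and 4. By a log2 ratio of 1 or more, 4 type I and 2 type II members were higher, against 17.7% of 13654 genes, and 0 and 1 were lower, against 3.10%. That is 4 of 29 and 2 of 9 members, near the background.

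**Figure D4:**
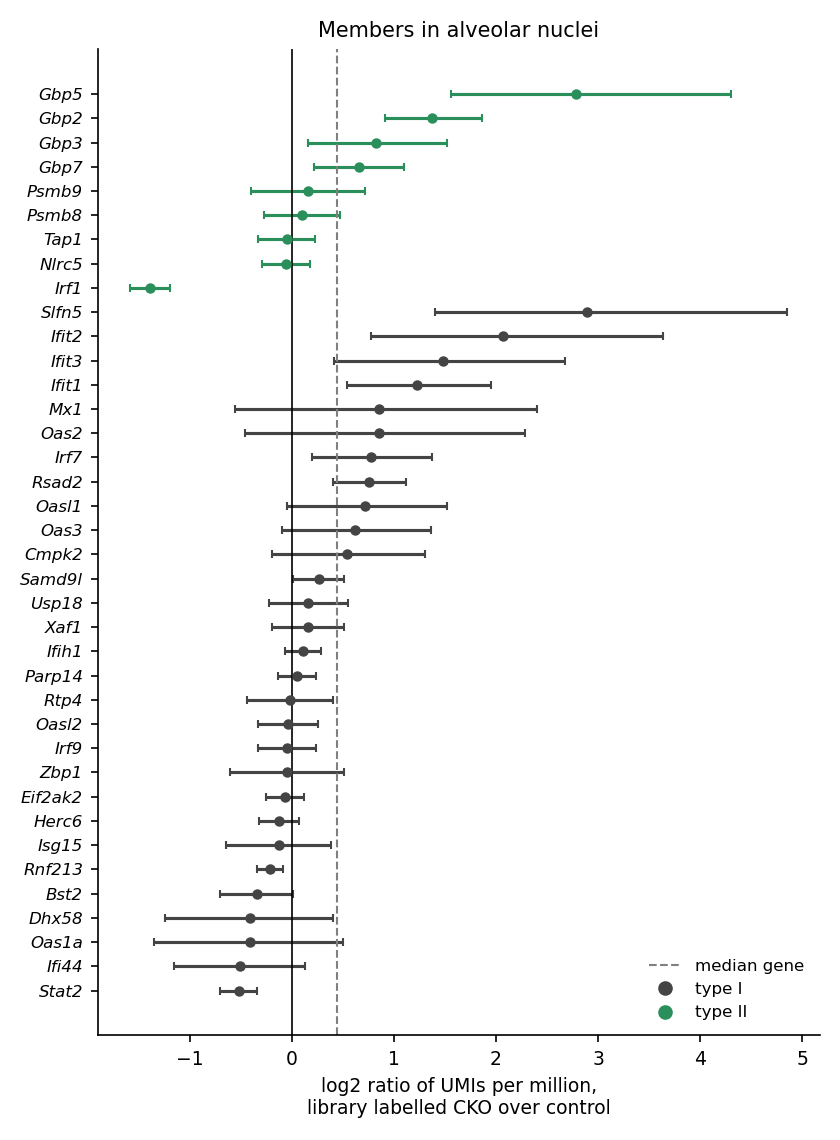
Log2 ratio of CPM in alveolar nuclei, library labelled CKO over control, for each of the 38 members, with exact conditional-binomial 95% intervals (counting error only). The solid line is 0 and the dashed line the median gene at 0.44, and Irf1 lies farthest to the left, at -1.39.

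Irf1 was the lower gene. It had 737 UMIs (123 CPM) in control and 313 (46.9) in CKO alveolar nuclei, a log2 ratio of -1.39 (-1.58 to -1.19), and supplied 47.5% of the control library's type II UMIs. In AT2-like nuclei it stood at 137 against 43.5 CPM and in transitional-like nuclei at 99.9 against 29.8, whereas in cluster 4 it was level, at 65.0 against 62.1. Without Irf1, the type II sum had a ratio of 0.28 (0.15 to 0.42), which was above 0 but still below the median gene. Among the other transcription factors, Stat2 was lower, at 67.1 against 96.1 CPM (-0.52, -0.70 to -0.34), Irf7 was higher, at 11.1 against 6.49 (0.77, 0.19 to 1.37), and Irf9 (-0.05) and Nlrc5 (-0.06) were level within counting error.

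The higher members were counted low in both libraries. Slfn5 had 33 UMIs in CKO and 4 in control alveolar nuclei (2.89, 1.40 to 4.85), Gbp5 46 and 6 (2.79, 1.56 to 4.31), Ifit2 28 and 6 (2.07, 0.77 to 3.63), Ifit3 31 and 10 (1.48, 0.41 to 2.67), Gbp2 150 and 52 (1.38, 0.91 to 1.86) and Ifit1 65 and 25 (1.23, 0.54 to 1.95). Rsad2 had 191 and 102 (0.75, 0.40 to 1.11) and Gbp7 124 and 71 (0.65, 0.22 to 1.09). The remaining members lay between -0.52 and 0.85, among them Isg15 (-0.13, -0.65 to 0.39), Bst2 (-0.35), Oasl2 (-0.04), Eif2ak2 (-0.07), Rnf213 (-0.22), Tap1 (-0.05), Psmb8 (0.10) and Psmb9 (0.15).

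Most leukocyte marker lists had higher sums in CKO than in control alveolar nuclei. The neutrophil marker list summed to 1.83 CPM in control alveolar nuclei, with 5 of 9 markers detected and S100a8, S100a9, Retnlg and G0s2 at 0, and to 127 with 9 of 9 detected in CKO alveolar nuclei. The macrophage list went from 54.7 (15 of 19) to 105 (19 of 19) and the T and NK list from 16.3 (10 of 15) to 29.2 (15 of 15). The B lineage list (46.6 CPM, on 311 UMIs against 90) and the plasmacytoid dendritic list (16.5, on 110 against 72) were also higher, whereas the dendritic list was lower in CKO alveolar nuclei, at 116 against 159. Within the library labelled CKO, neutrophil markers stood in alveolar nuclei at 1.32 to 5.39% (median 2.25%) of their neutrophil-like level. Slfn5 (3.17%) and Gbp5 (3.88%) lay inside that range. The other 28 type I members and the other 8 type II members lay above it, up to 83.8% and 44.2%. Ifit2 (5.57%), Oas2 (5.69%), Rsad2 (5.72%) and Ifit3 (6.27%) lay just past its upper end. In alveolar nuclei with no UMI of any leukocyte marker, Ifit1 had a ratio of -0.026 (-1.77 to 1.58), Rsad2 -0.46 (-1.30 to 0.33), Gbp2 0.57 (-0.41 to 1.53) and Gbp5 2.13 (0.07 to 4.67), Irf1 stayed at -1.37 (-1.88 to -0.89), and, among members with at least 20 UMIs there, 2 type I and 0 type II members were higher by a log2 ratio of 1 or more. Gbp5 had too few UMIs to enter that count. Deeper nuclei are more likely to hold a leukocyte marker UMI, and a dendritic-list marker reached 115 CPM even in control alveolar nuclei. The part of this selection in these ratios was not tested.

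By class, the sums again did not move together. In AT2-like nuclei the ratio was -0.072 (-0.15 to 0.0043) for type I and -0.58 (-0.73 to -0.44) for type II members. Of the members counted, 10 of 23 and 5 of 8 were higher, 0 of these by a log2 ratio of 1 or more. The shares of all genes in AT2-like nuclei are not given here, so these counts are description only. Slfn5 (13 and 2 UMIs, 3.15), Gbp5 (12 and 4, 2.04), Ifit2 (4 and 1) and Ifit3 (7 and 4) had too few UMIs there to be counted. Rsad2 was lower there, at 6.39 against 14.5 CPM (-1.18, -1.96 to -0.45), and without the 5 and 3 nuclei of high type I share its ratio over all alveolar nuclei was 0.15 (-0.28 to 0.58). Transitional-like nuclei had 735 against 1058 CPM for type I members (-0.53) and 195 against 283 for type II (-0.54). Cluster 4 had -0.13 (-0.24 to -0.01) and 0.21 (-0.04 to 0.46).

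Other genes of the interferon pathway, taken from a list of ligands, receptors, signalling genes, inhibitors, sensors and further targets, were mostly a little higher in CKO alveolar nuclei, as the median gene was. Of 89 counted, 67 were higher, 13 by a log2 ratio of 1 or more and 2 lower by that much, with a median of 0.33. Over all genes counted, 78.1% were higher, 17.7% by a log2 ratio of 1 or more and 3.10% lower by that much, with a median of 0.47. All 6 receptor genes were higher, among them Ifnar1 (0.63), Ifnar2 (0.28, -0.04 to 0.61), Ifngr1 (0.72) and Ifngr2 (0.96). All 9 inhibitors and 11 of 14 sensing genes were higher. Of 54 further targets, 39 were higher. The lowest pathway genes were Ifi27l2a (18.6 against 48.7 CPM, -1.39) and Ddx60 (28.6 against 61.5, -1.11), and the highest Ifi204 (3.07, on 28 and 3 UMIs) and Gbp4 (2.99, on 44 and 5). In neutrophil-like over alveolar nuclei 52 of 55 further targets were higher, 35 by a log2 ratio of 1 or more, against 40.9% and 9.20% of all genes counted. These targets were not held out of the clustering, so part of this difference may be set by how the class was made.

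Interferon RNA itself was close to the detection limit. Ifng had 22 UMIs in CKO T and NK-like nuclei (27.4 CPM), where it was the ligand with most UMIs, 3 in control T and NK-like nuclei (24.6 CPM), 5 in CKO alveolar nuclei and 0 in control alveolar nuclei. Ifnb1 had 3 UMIs in CKO and 0 in control alveolar nuclei. Il18, a cytokine that induces interferon gamma, was the ligand with most UMIs in neutrophil-like (10), macrophage and monocyte-like (22) and B lineage-like (3) nuclei, and Il12a in plasmacytoid dendritic-like nuclei, on 1 UMI.

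Chromatin counts at the members' start sites were mostly higher in neutrophil-like than in alveolar nuclei and nearly level between genotypes. Peaks within 1000 bases of the start were summed and given per 1000000 counts in regions with peaks in both libraries, or per 1000000 counts in all peaks where classes of 1 library were compared. In neutrophil-like over alveolar CKO nuclei, 24 of 28 type I members had higher peak counts, against 49.1% of all genes counted. By a log2 ratio of 1 or more, 12 were higher against a background of 5.42% of 15126 genes, and 3 were lower against 15.7%. All 9 type II members were higher, 3 by a log2 ratio of 1 or more. The sums gave 0.79 (0.71 to 0.87) and 0.81 (0.68 to 0.94). Oas2 (43 against 9 counts, 4.88), Slfn5 (54 against 15, 4.47) and Oasl1 (153 against 147, 2.68) had the highest ratios, and Ifit1 (1.40), Gbp2 (1.25), Isg15 (1.06), Irf1 (1.06) and Rsad2 (0.99) were among the members with lower ones. At the Oas2 start the library labelled CKO had 1 peak and the control library 0. The Oas2 ratio thus rests on a peak called only in the library that held most neutrophil-like nuclei. The Slfn5 peak counted here does not cover the printed ISRE match. Gbp5 had a ratio of 0.62 (-0.82 to 1.85) on 7 and 28 counts. Eif2ak2 was lower (-1.02, -1.70 to -0.40). Mx1 (-1.18, -4.30 to 0.80) and Ifi44 (-1.05, -2.98 to 0.39) were lower on 2 and 4 neutrophil-like counts, not beyond counting error. Of 37 members counted in both readouts, 33 had higher RNA and higher peak counts and 4 higher RNA with lower peak counts. Members with an ISRE match in the promoter window had a median RNA ratio of 2.75, with 11 of 15 past a log2 ratio of 1, and those with a window but no match 1.78, with 12 of 15 past it.

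**Figure D5:**
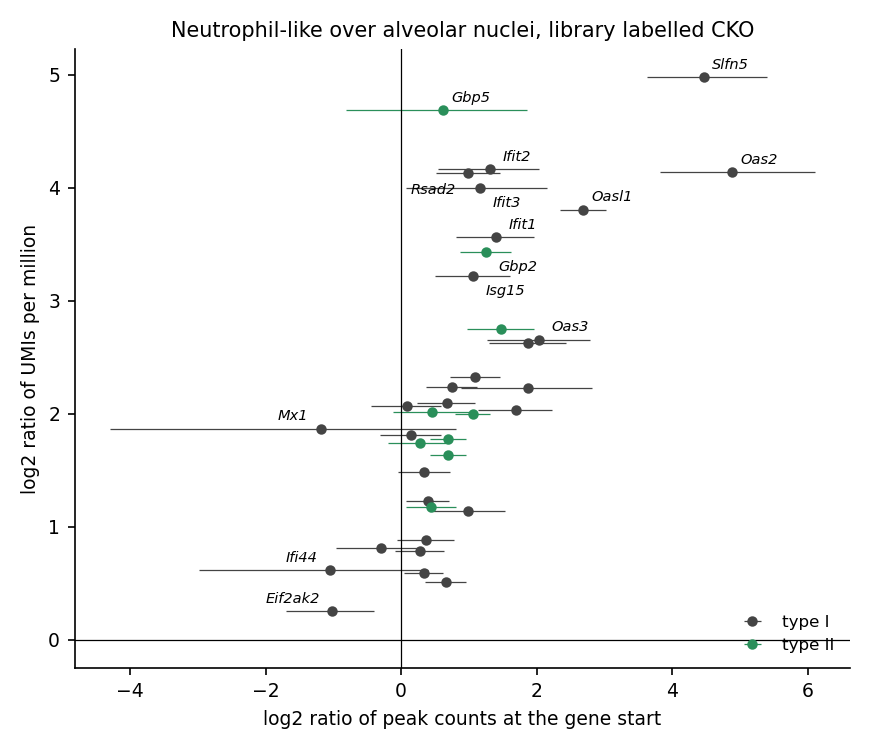
Log2 ratio of CPM (vertical) against log2 ratio of peak counts within 1000 bases of the gene start (horizontal), neutrophil-like over alveolar nuclei of the library labelled CKO, for the 37 members counted in both, with 95% intervals of the peak ratio. All points lie above 0 on the vertical axis, 33 lie to the right of 0 and 4 to the left, and Slfn5, Oas2 and Oasl1 lie farthest to the right.

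Between genotypes in alveolar nuclei, peak counts at the start sites were level for type I members, at 476 against 474 counts per 1000000 (0.0068, -0.052 to 0.065), and slightly lower for type II members, at 197 against 211 (-0.10, -0.19 to -0.01), with the median gene at -0.10. Of the members counted, 14 of 26 type I and 3 of 9 type II were higher, against 39.8% of all genes counted. Of these, 1 member, Xaf1 (17.3 against 8.38 on that scale, 1.05), was higher by a log2 ratio of 1 or more against a background of 2.58%. Irf1 was lower in this readout too, at 46.6 against 56.3 (-0.27, -0.45 to -0.09). Gbp2 (-0.60, -0.90 to -0.30), Rsad2 (-0.54, -0.85 to -0.23) and Gbp5 (-0.65, -1.41 to 0.10) had lower peak counts in the library labelled CKO, where their RNA was higher. Slfn5 had 15 and 2 counts, too few to be counted.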

How the data were processed

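Gene and peak matrices were used as the authors deposited them: raw counts per barcode (UMIs for genes, counts per peak), not normalized. Per the file headers they were made with Cell Ranger ARC 2.0.1. The submitters' processing notes also name Seurat 4.1.0, Signac 1.6.0, GRCm39 and GRCm38, without saying for which step. The files' gene start sites are those of GRCm38. The members and all gene lists were chosen with earlier results of these data known.

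The filter on nuclei required a mitochondrial share under 20%, 1000 to 100000 peak counts, 500 to 25000 UMIs and 300 or more genes. Scrublet (expected rate 0.08) and Leiden clustering (resolution 0.6, 2000 variable genes without the members, 30 components, 15 neighbours) were run in Scanpy 1.11.5 with leidenalg 0.10.2. Clusters took the marker list with the highest mean log2 fold over the equally weighted other clusters (at least 3 detected markers, score of at least 0.3, 10 CPM added). An earlier form of this score had been run and seen before it was changed to this one. A class keeps its cluster's markers by construction, so the comparisons between classes rest on the members, which did not enter the clustering. Other pathway genes and the marker lists were not held out of it, and their values by class are given as description.

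UMIs were summed per class and library and given per 1000000 nuclear-encoded UMIs (CPM). Ratios carry exact conditional-binomial, levels exact Poisson and shares Clopper-Pearson 95% intervals (SciPy 1.17.1, NumPy 2.4.6, Python 3.11.15). The calculation was tested on simulated data. Peaks were assigned to a gene when at least 1 base lay within 1000 bases of its start, and 97973 regions had peaks in both libraries. A peak shared by Tap1 and Psmb9 entered the type II sum once. All members may be named. Of other pathway genes, those named are the 2 highest and 2 lowest in alveolar nuclei, fixed genes (Ifng, Ifnb1 and the receptor genes Ifnar1, Ifnar2, Ifngr1 and Ifngr2) and each leukocyte class's ligand with most UMIs; 1 item of the rule is not reported here. The neutrophil-like class, absent from the planned class comparisons, was added after seeing the data, as was the rule for nuclei of high type I share. Promoter windows were taken from RefSeq. No genome sequence, exon structure or protein sequence was used here.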

Additional observations from a re-analysis of the deposited data

How the results depend on the processing

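The sums in neutrophil-like, macrophage and monocyte-like, and T and NK-like nuclei stayed above those of alveolar nuclei under each of the 10 alternatives run on them, while the sums between genotypes depended on scaling and on the nuclei taken. All values are log2 ratios unless called counts. Of 471 alternative values of ratios past 1 in either direction, 470 kept their sign, the exception being Ifit1 in alveolar nuclei without leukocyte marker UMIs (-0.026). The alveolar type I ratio (-0.026) kept its sign in 13 of 17 alternatives and the type II ratio (-0.29) in 16 of 17. The cause of each move below was not tested.

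Scaling by the median of ratios gave -0.47 and -0.73 for alveolar type I and type II sums, -0.47 and -0.99 in AT2-like nuclei, -0.74 for type I in transitional-like nuclei, 0.0070 for type I in T and NK-like nuclei between genotypes, 1.24 for type I in macrophage and monocyte-like nuclei, and 2.11 and 2.57 in neutrophil-like nuclei. It left 1 type II member higher by 1 or more in alveolar nuclei. Leaving Gm42418 and AY036118 out of the total gave -0.16 and -0.42 (alveolar type I and type II), -0.22 (AT2-like type I) and 2.02 (neutrophil-like type I).

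With no mitochondrial limit, type I ratios were 0.082 (alveolar), 0.11 (AT2-like), -0.34 (transitional-like) and 1.70 (neutrophil-like), and type II ratios -0.17 (transitional-like) and 2.18 (neutrophil-like). With no filter on nuclei they were 0.079, 0.14, -0.34 and 1.81 for type I, and -0.33 (AT2-like) and 2.24 (neutrophil-like) for type II. A minimum of 2000 UMIs gave -0.40 (alveolar type II), 0.96 (macrophage and monocyte-like type I), 1.54 (T and NK-like type II), 1.25 and 1.67 (neutrophil-like type I and type II). Leaving out the 5% of nuclei with most UMIs gave -0.092 (alveolar type I), 0.62 and 1.95 (T and NK-like type I and type II), 1.36 and 1.53 (macrophage and monocyte-like), 2.07 and 2.56 (neutrophil-like), and counts of 2 type I and 1 type II members higher by 1 or more in alveolar nuclei.

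Each library clustered alone gave 0.063 (alveolar type I) and 0.10 (AT2-like type I), with 7 type I members higher by 1 or more. In transitional-like nuclei, Leiden resolution 1.0 gave -0.21 and -0.10, and allowing members among the variable genes -0.33 and -0.13.

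In alveolar nuclei without leukocyte marker UMIs the sums were -0.17 and -0.48, with counts of 7 type I and 2 type II members higher, 2 and 0 by 1 or more. AT2-like nuclei alone gave -0.58 for type II, with 10 type I members higher and 0 and 0 by 1 or more. Thinning to 1000 UMIs gave -0.092 and -0.15, with 9 type I members higher and 1 and 0 by 1 or more. Weighting control nuclei to the CKO class makeup gave -0.16 for type I. A minimum of 50 UMIs left 1 type I member higher by 1 or more. Without Irf1 the type II ratio was 0.28, an alternative added after seeing the data. Peaks within 500 bases gave -0.12 for type I start sites. The other 182 alternative values of these 22 results stayed within their counting interval or, for counts, within 1.5 times.

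With 1 library per genotype, neither mouse, batch nor sort can be told apart from genotype, and neutrophil-like nuclei numbered 1 in the control library, so they were measured in the library labelled CKO alone. Members of low count, such as Slfn5, Gbp5, Ifit2 and Oas2 in alveolar nuclei, have wide intervals. No paired analysis was possible because each group has 1 library.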
